A study of Mus musculus with 12 samples.

Results

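Integrins and cadherins are the receptor families by which a cell holds on to its matrix and to its neighbours. The array carried 92 probes for 44 of these genes, among 41174 probes that are not controls and 27672 named features. The members were every gene whose name on the array reads as a numbered integrin alpha chain, Itgav, a numbered integrin beta chain or a numbered cadherin, and they comprised 21 integrins and 23 cadherins. Of the 44 genes, 28 were well above background on all arrays of at least 1 genotype by the scanner software's own call, and they are described here as 18 integrins and 10 cadherins. The RNA came from female mouse embryonic fibroblasts (MEFs), cultured connective tissue cells of the embryo, of 3 SIRT1 genotypes: wild type (WT MEFs), heterozygous (SIRT1 Het MEFs) and knockout (SIRT1 KO MEFs). SIRT1 is a protein deacetylase that uses NAD. Each genotype had 4 arrays, which the labels number 1, 2, 3 and 5 in WT and 2 to 5 in both others. All cells grew without further treatment in DMEM with 10% serum, 25 mM glucose and 4 mM glutamine. The labels give neither the strain, the age of the embryos nor whether the arrays of a genotype were separate cultures or embryos, so each p-value reflects only the scatter among these 12 RNA samples, which may be technical.

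Integrins are pairs of 1 alpha and 1 beta chain that span the membrane, bind matrix proteins such as fibronectin, laminins and collagens on the outside, and couple through talin and kindlin to actin on the inside. The alpha chain largely sets the ligand, and Itgb1 is the partner of most alpha chains of fibroblasts. Classical cadherins bind cadherins of the neighbouring cell in the presence of calcium and hold on to actin through catenins. Mesenchymal cells such as fibroblasts are known for Cdh2 and Cdh11, and epithelial cells for Cdh1.

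Levels are log2 signals, with each array's 75th percentile set to 0, and differences between genotypes are on the same log2 scale, with the standard error (SE) that limma gave in a fit over 16845 features. A gene was called where the Benjamini-Hochberg adjusted p was under 0.05. The median over all features tested was 0.08 for Het minus WT, 0.08 for KO minus WT and −0.02 for KO minus Het, and without scaling between arrays it was −0.15, 0.09 and 0.23. Levels of different probes are not comparable, so each gene is compared only with itself. In RNA from whole cultures, fewer cells of a type and less RNA per cell cannot be told apart.

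Some arrays stood apart from the others of their genotype. On WT replicate 3 the female-specific Xist read −2.94 against 1.66 to 3.42 on the other 11 arrays. The Y-linked Ddx3y read 1.04 there against at most −4.35, and both values go against the female label of that array. Ddx3y was next highest on Het replicate 3 (−4.35) and KO replicate 3 (−5.28), against at most −7.04 on the rest. On Het and KO replicate 3 Xist read 1.66 and 3.19. The arrays numbered 3 correlated with the others of their genotype at 0.925 to 0.935 in WT, 0.963 to 0.965 in Het and 0.966 to 0.969 in KO, below every other pair of the same genotype (0.970 to 0.998). KO replicates 4 and 5, on the same slide, were the closest pair, at 0.998. Sirt1 itself was lower in KO at 1 of its probes (−0.83 against WT, limma adjusted p = 0.0361 with every probe fitted) and stood at 0.02 at the other. In Het against WT the same probes stood at 0.01 and 0.08 (limma adjusted p = 0.983 and 0.907), so neither read lower in Het. Of 12 fibroblast markers, 11 were well above background on all 12 arrays, with a summed level of 9.07 to 9.78, although Thy1 fell by 3.47 in KO against WT and Dcn by 3.21 in KO against Het. The part of these differences between arrays in the results below was not tested, and results are given with and without the 3 arrays numbered 3.

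Few of the integrins and cadherins passed the test. In Het against WT 1 of 28 was called, Itga8, beside 1.18% of all features, and in KO against WT 1 of 28 was called, Itgb1, beside 1.64%. In KO against Het 3 of 28 were called (10.7%), beside 0.997% of all features: Itga11 and Itga8 were higher in KO and Itga6 lower. The 3 comparisons share arrays, so they are not independent. With slide as a block 0 of the 28 were called in any comparison. With KO replicates 4 and 5 averaged into 1 sample, Itga8 in Het against WT was still called (adjusted p = 0.0239) and the other 4 calls were lost (adjusted p of 0.0936 to 0.117). The same 4 calls were lost with no filter on dim probes (adjusted p of 0.0605 to 0.0801), and on unscaled signals Itga8 in Het against WT and Itga11 in KO against Het were called (adjusted p = 0.0212 and 0.0141) and the other 3 were not (adjusted p of 0.0525 to 0.108). Genotypes did not overlap for 5 members in Het against WT (17.9%, beside 9.33% of all features), for 3 in KO against WT (10.7%, beside 8.85%) and for 6 in KO against Het (21.4%, beside 10.6%). No cadherin was called by limma in any comparison. At an unadjusted p under 0.05 there were 1, 2 and 2 of 10 cadherins in the same order, beside 16.3%, 16.5% and 11.2% of all features. Of the 18 integrins it was 8, 7 and 5 (44.4%, 38.9% and 27.8%). Of the 28 genes, 6 were not well above background on at least 1 array (Cdh1, Cdh10, Cdh17, Cdh24, Itga1 and Itga4). Of these, Cdh1 and Cdh24 passed the background filter only through KO and Itga4 only through WT. Cdh10 and Cdh17 passed only through Het and KO, and Itga1 only through WT and KO. The counts without overlap include Itga4 in Het against WT, Cdh1 in KO against WT and Itga1 in KO against Het. In each, the genotype that read lower did not pass the filter, so these genes are not support for those counts. These counts describe the genes that passed the background filter and not the whole families.

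**Figure D1:**
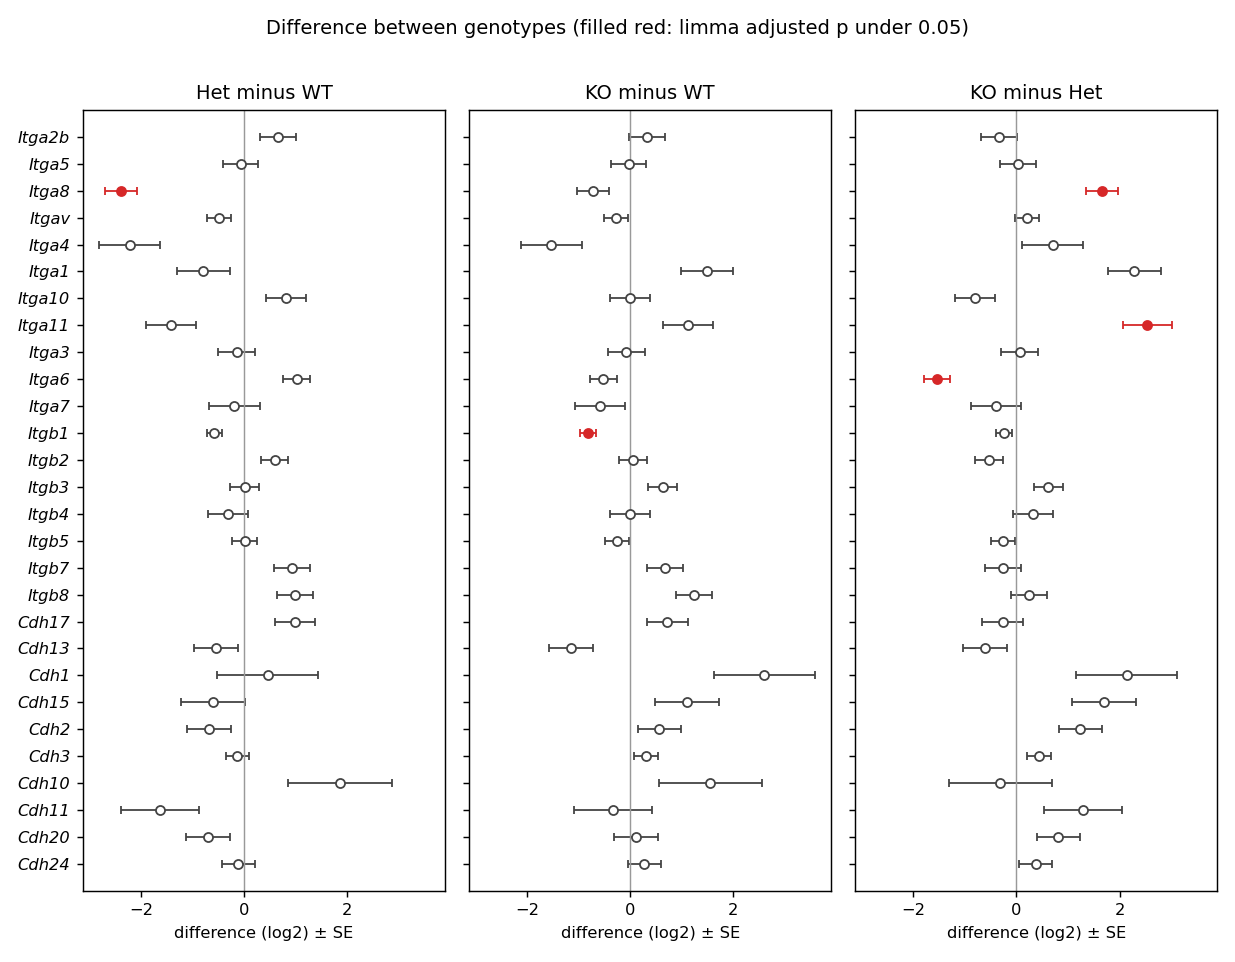
Differences between genotypes for the 28 tested integrin and cadherin genes (log2, x axis) with their SE, in 3 panels for Het minus WT, KO minus WT and KO minus Het. Filled red points passed the limma test: Itga8 in the first panel, Itgb1 in the second, and Itga8, Itga11 and Itga6 in the third.

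The clearest member was Itga8, the alpha chain that pairs with Itgb1 and binds proteins with an arginine-glycine-aspartate motif such as nephronectin. Of its 3 probes, 1 was well above background on 5 of 12 arrays and was not tested. The 2 tested probes start 172 bases apart on the minus strand of chromosome 2 (build mm7), of which the first 30 of 60 bases are shown because both gave the same result from different stretches of the transcript.
Itga8, chr2:12045993-12046052: catacattggtattctcgaggagtctatct
Itga8, chr2:12046165-12046224: agtcaaaacatggtttcccatggtctcaac
At the first probe, which stands for the gene, Itga8 read −0.20, −1.53, −0.07 and −0.36 on WT arrays 1, 2, 3 and 5. It read −2.81, −2.54, −3.20 and −3.16 on Het arrays 2, 3, 4 and 5, and −1.73, −0.94, −1.10 and −1.27 on the KO arrays of the same numbers. All Het arrays lay below all arrays of the other genotypes, while WT and KO overlapped through WT replicate 2.

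Itga8 fell by 2.39 in Het against WT (SE 0.31, 5.22-fold lower, limma adjusted p = 0.00973), and KO stood 1.66 above Het (SE 0.31, 3.17-fold, adjusted p = 0.0337). KO against WT was −0.72 (SE 0.31, adjusted p = 0.274) and did not pass. The other probe gave −2.35 in Het against WT (adjusted p = 0.00732) and 1.60 in KO against Het (adjusted p = 0.0303), in the fit of every probe, where 1.09% and 0.816% of 25601 probes were called. The Het difference from WT passed in each of the 12 fits that left out 1 array, at adjusted p values of 0.00345 to 0.0489. With slide as a block it was −2.45 (adjusted p = 0.0688), and within slides 3 and 4 it was −2.01 and −2.80. The KO difference from Het was lost in 7 of the 12 fits, those without WT replicate 5 or without replicate 2, 4 or 5 of Het or KO (adjusted p up to 0.131, differences of 1.56 to 1.82 over the 12 fits). It was also lost with slide as a block (1.70, adjusted p = 0.102) and with normexp background correction (1.44, adjusted p = 0.0631), and within slides 1, 3 and 4 it was 1.93, 1.08 and 1.97.

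The other integrin alpha chains that bind this motif did not pass in any comparison. Itga5, the fibronectin receptor chain, averaged 0.68 ± 0.73 (SD, n = 4) in WT, 0.62 ± 0.24 in Het and 0.65 ± 0.49 in KO. Itgav, the chain of the vitronectin and latent TGF-beta receptors, read 1.05 to 2.01 in WT and 0.81 to 1.03 in Het, groups that did not overlap, at a difference of −0.49 (SE 0.23, adjusted p = 0.317). Its other tested probe gave −0.95 (adjusted p = 0.110). Itga2b, known as the platelet chain, averaged −3.24 ± 0.26, −2.59 ± 0.63 and −2.92 ± 0.63, and of 5 megakaryocyte and platelet markers 1 was well above background on all 12 arrays and Gp1ba on 0.

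Among the laminin-binding alpha chains, Itga6 was highest in Het. It pairs with Itgb1 or Itgb4 and binds laminins of the basement membrane. Its 3 tested probes lie on the plus strand of chromosome 2 (mm7), and the starts of those that gave the largest and the smallest difference are shown.
Itga6, chr2:71701626-71701685: tctggagtatcttggagcctagcacactgg
Itga6, chr2:71698562-71698621: attctattcctgttgccgtcacaaaataag
At the probe shown first, which stands for the gene, Itga6 read 1.59, 1.62, 0.94 and 0.97 on WT arrays 1, 2, 3 and 5. It read 2.37, 2.16, 2.41 and 2.26 on Het arrays 2 to 5, and 0.68, 1.55, 0.42 and 0.38 on KO arrays 2 to 5. The Het arrays lay above all others, and KO replicate 3 was the KO array nearest to them.

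Itga6 fell by 1.54 in KO against Het (SE 0.26, 2.91-fold lower, limma adjusted p = 0.0224). Het against WT was 1.02 (SE 0.26, adjusted p = 0.0861) without overlap between the genotypes, and KO against WT was −0.52 (adjusted p = 0.362). A further probe, on other bases of the gene, also passed in KO against Het (−1.45, adjusted p = 0.0367), and the probe shown second, well above background on 8 of 12 arrays, gave −0.45 (adjusted p = 0.656). The call in KO against Het was kept in 6 of the 12 fits without 1 array and lost without replicate 2, 4 or 5 of Het or KO (adjusted p up to 0.0976, differences of −1.81 to −1.41 over the 12 fits). With slide as a block it was −1.40 (adjusted p = 0.0660), and within slides 1, 3 and 4 it was −0.73, −1.69 and −1.86.

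The other laminin receptors of this group did not pass in any comparison. Itga3 averaged 0.68 ± 0.74 in WT, 0.54 ± 0.28 in Het and 0.60 ± 0.54 in KO. Itga7, known from muscle, averaged −0.53 ± 0.39, −0.73 ± 1.08 and −1.13 ± 0.63, and its array numbered 3 was the lowest in each genotype.

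Of the collagen receptors, Itga11 was higher in KO than in Het, and Itga1 did not pass at the probe that stands for it. Each pairs with Itgb1, Itga11 to bind fibrillar collagen and Itga1 to bind collagens that include collagen IV. The Itga11 probe lies on the plus strand of chromosome 9, and its start is shown as the only probe behind that call.
Itga11, chr9:62812215-62812274: gtttcatctgaacaatgtcatctgttcccc
Itga11 read 0.22, 0.52, 0.45 and 1.27 on WT arrays 1, 2, 3 and 5. It read −0.25, 0.31, −1.52 and −1.75 on Het arrays 2 to 5, and 1.06, 2.71, 1.60 and 1.57 on KO arrays 2 to 5. The KO arrays lay above all Het arrays and overlapped with WT, and the Het arrays split into a higher pair, numbered 2 and 3, and a lower pair, numbered 4 and 5.

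Itga11 was 2.54 higher in KO than in Het (SE 0.48, 5.82-fold, limma adjusted p = 0.0337). Het against WT was −1.42 (SE 0.48, adjusted p = 0.177) and KO against WT 1.12 (SE 0.48, adjusted p = 0.267). The call was kept in 4 of the 12 fits without 1 array and lost without WT replicate 2 or 5, or replicate 2, 4 or 5 of Het or KO (adjusted p up to 0.131, differences of 2.22 to 2.91 over the 12 fits). With slide as a block the difference was 2.73 (adjusted p = 0.0743), and within slides 1, 3 and 4 it was 3.32, 1.32 and 3.33.

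Itga1 was read by 4 tested probes that spread over 71929 bases of chromosome 13. At the probe that stands for the gene it read −3.67, −5.26, −2.76 and −4.64 on WT arrays 1, 2, 3 and 5. It read −4.80, −3.77, −5.61 and −5.32 on Het arrays 2 to 5, where replicate 4 was not well above background, and −2.20, −2.59, −2.82 and −2.74 on KO arrays 2 to 5. KO lay above Het without overlap, and the WT array nearest to KO was replicate 3.

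KO stood 2.29 above Het (SE 0.51, 4.88-fold, limma adjusted p = 0.0752), which did not pass, although with normexp background correction it did, at 1.63 (adjusted p = 0.0351). The other 3 probes gave 1.55, 2.60 and 2.50 for the same comparison, at adjusted p values of 0.0612, 0.0109 and 0.0111 in the fit of every probe. The last 2 of them also passed in KO against WT, at 1.86 (adjusted p = 0.0343) and 1.83 (adjusted p = 0.0340), beside 1.5% of all probes. They were well above background on 9 and 7 of 12 arrays, so their WT and Het levels rest partly on signals near background. All 3 of these probes passed the background filter only through KO, where they read highest, so their calls are given as values and not as support for the gene's difference. Itga10, another collagen receptor chain, averaged −5.29 ± 0.26, −4.48 ± 0.71 and −5.29 ± 0.70 and did not pass in any comparison.

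Itga4, which with Itgb1 binds Vcam1 and fibronectin and is known from leukocytes, was dim, and its 2 tested probes disagreed. Its 4 further probes, well above background on 0 to 3 of 12 arrays, were not tested. The tested probes' starts on the plus strand of chromosome 2 are shown because they lie 37745 bases apart and point in opposite directions.
Itga4, chr2:79174249-79174308: aacttcttcaagctgatatgggcgttgaga
Itga4, chr2:79136504-79136563: aaggaagcccaactattcctaggagccctt
At the first, Itga4 read −4.07, −5.12, −5.31 and −4.91 on WT arrays 1, 2, 3 and 5. It read −7.99, −5.74, −7.92 and −6.66 on Het arrays 2 to 5, of which 2 were well above background, and −6.79, −4.81, −6.89 and −7.02 on KO arrays 2 to 5, of which 3 were. WT lay above Het without overlap, and the array numbered 3 was the highest of the 4 in Het and in KO.

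The difference between Het and WT was −2.22 at that probe (SE 0.59, limma adjusted p = 0.0931) and 0.86 at the other (SE 0.50, adjusted p = 0.429), so neither passed. With normexp background correction the first was −0.66 (adjusted p = 0.582). The first probe passed the background filter only through WT and the other only through Het, in each case where it read highest. Leukocyte markers stood beside it as follows: 2 of 8 were well above background on all 12 arrays, Ptprc on 0, and the summed level ranged from −1.40 to −0.39 in WT, −1.22 to −0.68 in Het and −1.14 to −0.88 in KO. Their part in the Itga4 values was not tested.

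**Figure D2:**
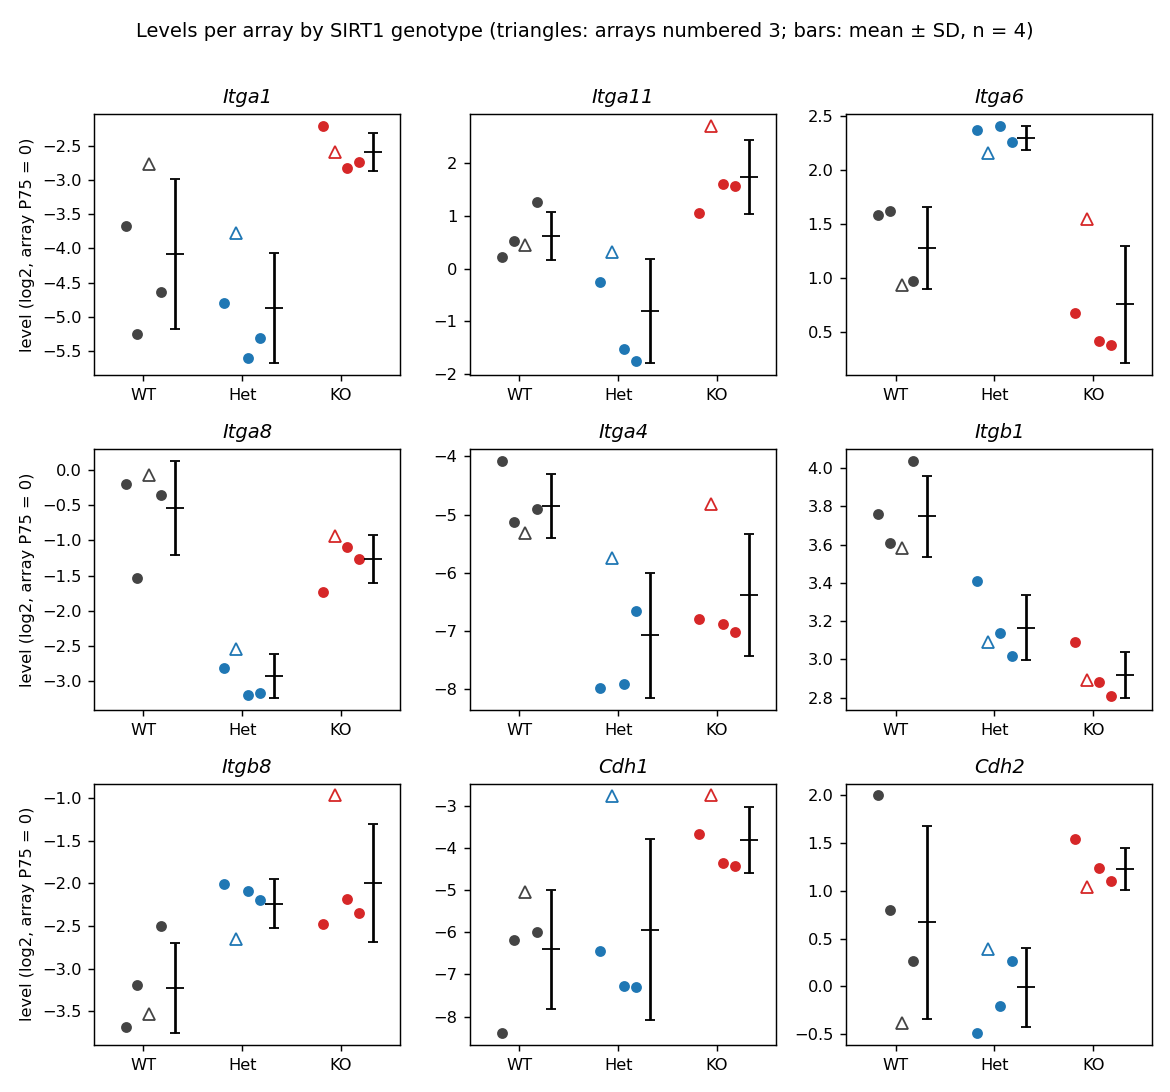
Level on each array (log2, array 75th percentile set to 0) by SIRT1 genotype for the 9 members that were called or whose genotypes did not overlap at a difference of at least 1. Triangles are the arrays numbered 3 and bars give the mean and SD of 4 arrays. The Het arrays of Itga8 lie below all other arrays and those of Itga6 above all others, and the KO arrays of Itgb1 all lie below the WT arrays.

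Among the beta chains, Itgb1 fell in KO. It is the shared partner of the laminin, collagen and fibronectin receptors above. Its probe on the plus strand of chromosome 8 is printed on the array 10 times, and the other tested probe starts 10143 bases away. Their starts are shown because both read the same decline.
Itgb1, chr8:127341194-127341253: aaataaaattgacacagttgatgttcaagt
Itgb1, chr8:127331051-127331110: tggacgcttactgcaggaaagagaacagtt
At the first, Itgb1 read 3.76, 3.61, 3.58 and 4.04 on WT arrays 1, 2, 3 and 5. It read 3.41, 3.09, 3.14 and 3.02 on Het arrays 2 to 5, and 3.09, 2.89, 2.88 and 2.81 on KO arrays 2 to 5. Every WT array lay above every Het and KO array, and Het and KO overlapped.

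Itgb1 fell by 0.82 in KO against WT (SE 0.15, 1.77-fold lower, limma adjusted p = 0.0238) and stood at −0.58 in Het against WT (SE 0.15, adjusted p = 0.0834). KO against Het was −0.24 (adjusted p = 0.614). The second probe gave −0.90 in KO against WT (SE 0.18, adjusted p = 0.0340). The call was lost without WT replicate 5, KO replicate 4 or KO replicate 5 (adjusted p up to 0.102, differences of −0.88 to −0.73 over the 12 fits without 1 array). With slide as a block it was −0.79 (adjusted p = 0.154), and within slides 3 and 4 it was −0.50 and −1.19.

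Itgb8, which with Itgav binds and activates latent TGF-beta, read higher in KO than in WT at its 3 tested probes. A further probe, not tested, was well above background on 0 arrays. At the probe that stands for the gene it read −3.69, −3.19, −3.53 and −2.50 on WT arrays 1, 2, 3 and 5. It read −2.01, −2.65, −2.09 and −2.20 on Het arrays 2 to 5, and −2.48, −0.97, −2.18 and −2.35 on KO arrays 2 to 5. KO lay above WT by a narrow gap, between KO replicate 2 and WT replicate 5, and KO replicate 3 was the highest array of all. The difference of 1.23 (SE 0.35, limma adjusted p = 0.112) did not pass, the other tested probes gave 1.22 (adjusted p = 0.0340) and 1.09 (adjusted p = 0.143), and within slide 4 the difference was 0.23.

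The other 5 tested beta chains did not pass in any comparison. Itgb3, a partner of Itgav and Itga2b, averaged −1.07 ± 0.15 in WT, −1.06 ± 0.57 in Het and −0.44 ± 0.41 in KO. Itgb5, the other vitronectin receptor chain, averaged 5.28 ± 0.47, 5.29 ± 0.34 and 5.02 ± 0.09. Itgb4, which pairs with Itga6 in epithelial hemidesmosomes, averaged −1.06 ± 0.74, −1.38 ± 0.54 and −1.06 ± 0.50, and the array numbered 3 was its highest in each genotype. The leukocyte chains Itgb2 and Itgb7 averaged −4.13 ± 0.47 and −3.54 ± 0.59 in WT, −3.54 ± 0.39 and −2.61 ± 0.71 in Het, and −4.07 ± 0.29 and −2.87 ± 0.16 in KO.

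Of the type I cadherins, Cdh1 had the largest fitted difference among the 28 members in the 3 comparisons, and it did not pass. It is the cadherin of epithelial junctions. It read −8.39, −6.19, −5.05 and −5.99 on WT arrays 1, 2, 3 and 5, of which 2 were well above background. It read −6.44, −2.78, −7.27 and −7.29 on Het arrays 2 to 5, of which 2 were, and −3.67, −2.76, −4.36 and −4.44 on KO arrays 2 to 5, all of which were. KO lay above WT without overlap, the array numbered 3 was the highest of each genotype, and Het replicate 3 was level with KO replicate 3.

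The difference of KO from WT was 2.60 (SE 0.98, limma adjusted p = 0.211), and with normexp background correction it was 1.46 (adjusted p = 0.209). Cdh1 passed the background filter only through KO, where it is high, so these differences rest partly on WT signals not above background. Without the 3 arrays numbered 3 it was 2.70 (SE 0.59, adjusted p = 0.0158), and within slides 3 and 4 it was 1.95 and 1.59. Of 9 epithelial markers, 5 were well above background on all 12 arrays and Esrp1 on 0. Their summed level ranged from 1.53 to 4.18 in WT, 0.46 to 1.89 in Het and 1.72 to 2.60 in KO. The epithelial surface protein Epcam rose by 1.59 in KO against WT (SE 0.34, adjusted p = 0.0462), and the keratin Krt8 by 3.36 in Het against WT (SE 0.62, adjusted p = 0.0383). Each was well above background on 1 WT array. Epcam passed the background filter only through KO, and Krt8 only through Het and KO, where they read higher than in WT. Both rises are therefore given as values and not as support. The keratin Krt19 stood at −3.18 in Het against WT (SE 0.72, adjusted p = 0.0585) and −1.62 in KO against WT (adjusted p = 0.286), which did not pass. Their part in the Cdh1 values was not tested.

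Cdh2, the N-cadherin of mesenchymal and neural cells, read 2.00, 0.80, −0.38 and 0.26 on WT arrays 1, 2, 3 and 5. It read −0.49, 0.39, −0.21 and 0.27 on Het arrays 2 to 5, and 1.54, 1.04, 1.24 and 1.10 on KO arrays 2 to 5. KO lay above Het without overlap, and WT spread over the range of both. The difference of KO from Het was 1.24 (SE 0.42, limma adjusted p = 0.254). Cdh3, P-cadherin, averaged 0.62 ± 0.44, 0.49 ± 0.26 and 0.93 ± 0.23. Cdh15, M-cadherin of muscle cells, averaged −4.19 ± 0.99, −4.78 ± 0.34 and −3.09 ± 1.32, with KO replicate 3 at −5.04 against −2.72 to −2.28 on the other KO arrays. Of 7 skeletal muscle markers 1 was well above background on all 12 arrays and Myf5 on 0.

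Cdh11, the type II cadherin of mesenchymal cells, is described by array because its probes disagreed, a choice made after its values were seen. Of its 3 probes on the minus strand of chromosome 8, those shown first and second lie near each other, and the third starts 34433 bases from the second.
Cdh11, chr8:101227807-101227866: tatttaaatgaaggagaagtccacggtgaa
Cdh11, chr8:101227384-101227443: tattttagtatacatacaaatatcagtatt
Cdh11, chr8:101261817-101261876: ctcagggacaaccaaagtgacgatcactct
The first, which stands for the gene, read 2.23, 1.68, 3.75 and 2.35 on WT arrays 1, 2, 3 and 5, 0.44, 2.07, 0.52 and 0.45 on Het arrays 2 to 5, and 2.69, −0.35, 3.24 and 3.07 on KO arrays 2 to 5. The third read 1.25, 2.06, 2.15 and 1.80 on the WT arrays, 1.60, 1.09, 1.62 and 1.52 on the Het arrays, and 1.55, 1.49, 1.26 and 1.29 on the KO arrays. At the first probe KO replicate 3 was the lowest array of all while the other KO arrays were high, and at the third the KO arrays lay close together.

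At the first probe Cdh11 differed by −1.63 in Het against WT (SE 0.76, limma adjusted p = 0.312) and by 1.29 in KO against Het (SE 0.76, adjusted p = 0.592). The second probe gave −1.44 and 1.13, and the third −0.36 and −0.06. The remaining type II cadherins did not pass in any comparison. Cdh10 averaged −6.02 ± 1.53, −4.16 ± 1.78 and −4.47 ± 1.43, and its WT replicate 3 at −8.30 was not well above background. Cdh20 averaged −2.31 ± 1.10, −3.01 ± 0.24 and −2.21 ± 0.18, and KO lay above Het without overlap at a difference of 0.81 (SE 0.42, adjusted p = 0.527). Cdh24 averaged −5.45 ± 0.59, −5.56 ± 0.52 and −5.18 ± 0.30.

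Cadherins of other forms were Cdh13 and Cdh17. Cdh13, T-cadherin, which is held in the membrane by a lipid anchor, averaged 2.12 ± 0.83, 1.58 ± 0.33 and 0.97 ± 0.72, a difference of −1.15 in KO against WT (SE 0.43, limma adjusted p = 0.205). Without the arrays numbered 3 it was −1.85 (SE 0.25, adjusted p = 0.00179). Cdh17, known from intestinal epithelium, averaged −5.41 ± 0.66, −4.42 ± 0.35 and −4.69 ± 0.71.

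The 16 genes that did not pass the background filter were Itga2, Itga9 and Itgb6 among the integrins and Cdh4, Cdh5, Cdh6, Cdh7, Cdh8, Cdh9, Cdh12, Cdh16, Cdh18, Cdh19, Cdh22, Cdh23 and Cdh26 among the cadherins. Their best probes were well above background on 0 to 7 arrays. Cdh5, the cadherin of endothelial cells, reached 3 arrays, and the endothelial markers Pecam1 and Tie1 reached 0.

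**Figure D3:**
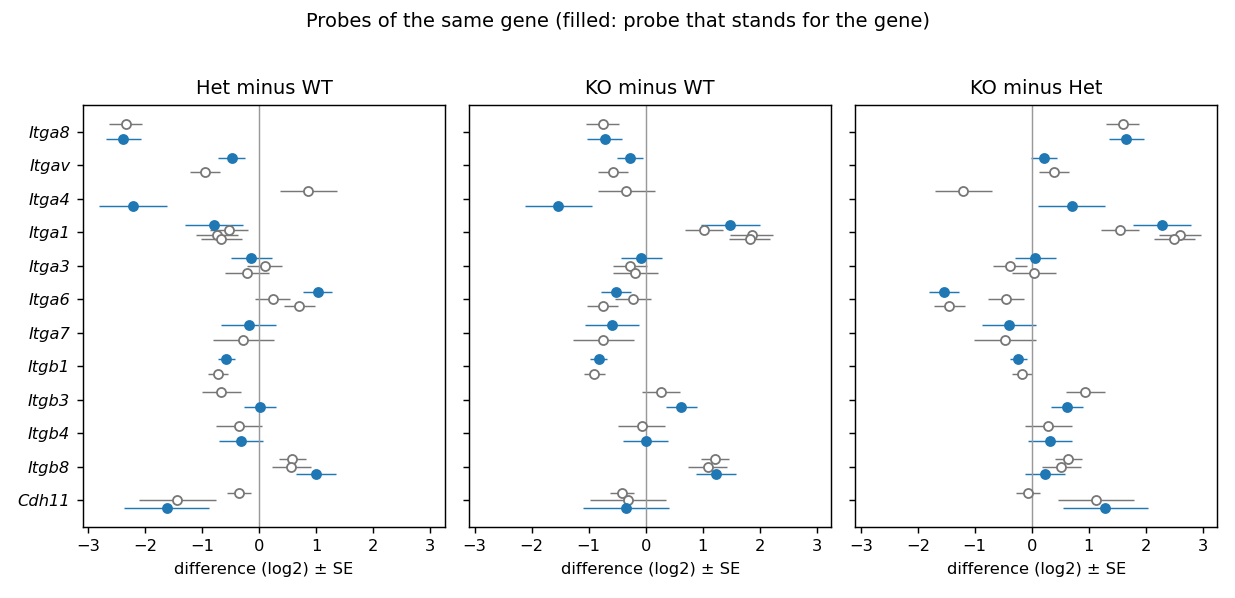
Differences between genotypes (log2, x axis, with SE) at each tested probe of the 12 members that have several, in 3 panels for the 3 comparisons. Filled blue points are the probes that stand for the gene. The probes of Itga8, Itgb1, Itgb8 and Itga1 lie close together or on the same side of 0, while those of Itga4 lie on opposite sides in Het minus WT and the third Cdh11 probe lies near 0 in KO minus Het.

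Where several probes of a member were tested, they mostly read the same direction. All tested probes shared a sign in 9 of 12 genes for Het against WT, in 11 of 12 for KO against WT and in 9 of 12 for KO against Het. The exceptions were Itga3, Itga4 and Itgb3 in the first comparison, Itgb4 in the second, and Cdh11, Itga3 and Itga4 in the third. For Itgb4 the values were only −0.07 and 0.0, and its tested probes start 10 bases apart, so they are hardly separate readings.

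The arrays numbered 3 stood apart in many members. In 7 of the 28 the array numbered 3 lay outside the other 3 arrays in the same direction in all 3 genotypes, which held for 16.2% of all features: it was the highest for Cdh1, Itga8 and Itgb4 (beside 7.24% of all features) and the lowest for Cdh15, Itga7, Itgb2 and Itgb5 (beside 8.95%). Cdh11 went opposite ways, with the array numbered 3 at 1.66 and 1.60 above the mean of the others in WT and Het and −3.35 against them in KO.

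**Figure D4:**
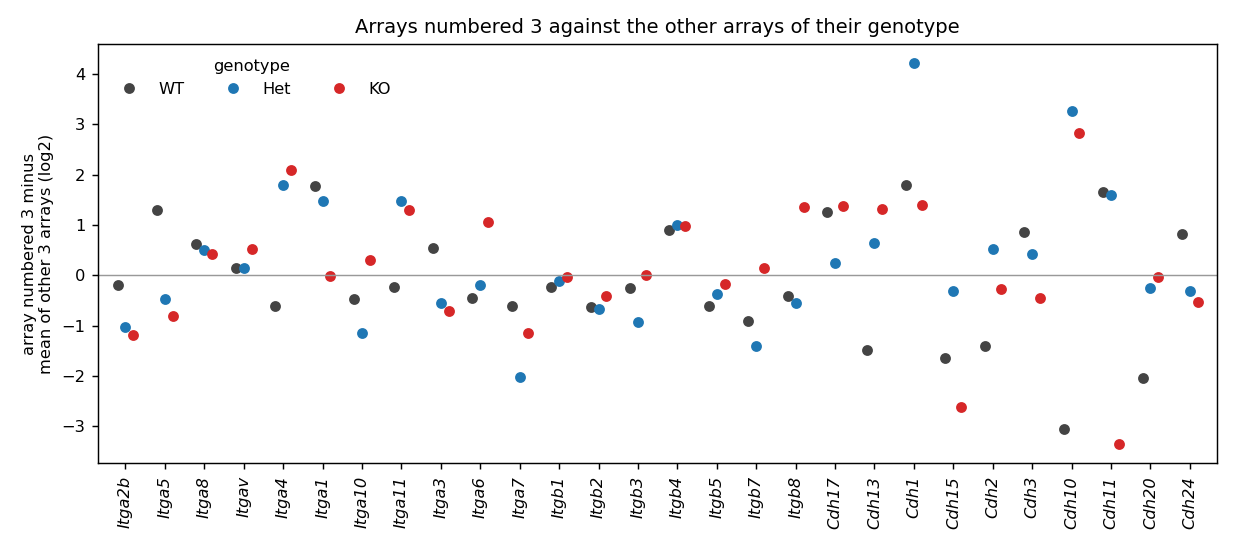
Level of the array numbered 3 minus the mean of the other 3 arrays of its genotype (log2, y axis) for each tested member, with WT in grey, Het in blue and KO in red. Itgb1 and Itga8 stay within 1 of 0 in each genotype, and Cdh1, Cdh10 and Cdh11 reach beyond 3 in at least 1.

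Without those 3 arrays, calls increased over the whole array, to 12.2% of features in Het against WT, 17.3% in KO against WT and 8.98% in KO against Het, and among the 28 members to 11 (39.3%), 9 (32.1%) and 8 (28.6%). The 11 comprised Cdh17, Itga6, Itgb7 and Itgb8 as higher in Het than in WT, and Cdh11, Cdh13, Cdh20, Itga4, Itga8, Itga11 and Itgb1 as lower. The 9 comprised Cdh1, Cdh3, Cdh11, Cdh15 and Itga1 as higher in KO than in WT, and Cdh13, Itga4, Itga6 and Itgb1 as lower. The 8 comprised Cdh1, Cdh3, Cdh11, Cdh15, Itga1, Itga8 and Itga11 as higher in KO than in Het, and Itga6 as lower. Each genotype then had 3 arrays, among them the closely alike KO replicates 4 and 5. Of the members in these counts, Cdh1 passed the background filter only through KO and Itga4 only through WT, in each case where it read highest. Cdh17 passed only through Het and KO, where it read higher than in WT. Itga1 passed only through WT and KO, where it read higher than in Het. The calls of Cdh1 and Itga4, of Cdh17 in Het against WT and of Itga1 in KO against Het are therefore given as values and not as support. With all arrays, the other tested Itga4 probe went the other way in Het against WT (0.86). Cdh11 stood at −1.62, 0.91 and 2.53 in the 3 comparisons (adjusted p = 0.00218, 0.0194 and 0.000198), which leaves out KO replicate 3, its low KO array. With all arrays, the same probe had the opposite sign in KO against WT, at −0.34. The third Cdh11 probe, well above background on all 12 arrays, then gave −0.36, −0.42 and −0.06. The Cdh11 calls therefore hold for the standing probe only.

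The 5 calls made with all arrays were also made without the arrays numbered 3. Itga8 was at −2.36 in Het against WT (limma adjusted p = 0.00356) and 1.69 in KO against Het (adjusted p = 0.0164). Itga6 was at −1.85 (adjusted p = 0.000606) and Itga11 at 2.59 (adjusted p = 0.00537) in KO against Het, and Itgb1 at −0.87 in KO against WT (adjusted p = 0.00939). Leaving out WT replicate 3 alone lost none of the 5.

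Het cells had the lowest mean of the 3 genotypes in 14 of the 28 members, beside 26.3% of all features, and the highest in 8 (28.6%), beside 38.7%. Means fell from WT through Het to KO in 3 members, Cdh13, Itga7 and Itgb1 (10.7%, beside 14.3%), and were ordered the other way in Cdh1, Itgb3 and Itgb8 (10.7%, beside 20.7%). The first count depends on the scaling between arrays: on unscaled signals Het was lowest in 16 members (57.1%), beside 57.7% of all features. Cadherins had a median difference of 0.62 in KO against Het and −0.33 in Het against WT, and integrins of 0.05 and −0.10. These signs were the same with normexp background correction, with quantile normalization and without scaling.

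Among 34 ligands of integrins in matrix and on cells, 32 were tested, and 3 were called in KO against WT, beside 1.64% of all features. Col4a1 and Col4a2, the chains of collagen IV, fell by 0.90 (SE 0.14, limma adjusted p = 0.0116) and 0.93 (SE 0.15, adjusted p = 0.0167), and the laminin chain Lama5 rose by 1.15 (SE 0.25, adjusted p = 0.0481). In KO against Het 1 was called, beside 0.997%: Vcam1, a cell surface ligand of Itga4 with Itgb1, which fell by 1.45 (SE 0.27, adjusted p = 0.0336). In Het against WT 0 were called by limma, beside 1.18%, with 11 at an unadjusted p under 0.05, beside 16.3%. The median differences of the list were −0.08, −0.21 and −0.14 for Het minus WT, KO minus WT and KO minus Het, and the last turned to 0.11 on unscaled signals.

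Of 41 genes of the adhesion complex inside the cell, such as talins, kindlins, vinculin and paxillin, 38 were tested and 0 were called by limma, with 10, 14 and 4 at an unadjusted p under 0.05, beside 16.3%, 16.5% and 11.2% of all features. Their median was −0.17 in Het against WT, −0.31 in KO against WT and −0.16 in KO against Het, with 29 of 38 below 0 in KO against WT, beside 6957 of all 16845 features. The median for KO against Het turned to 0.10 on unscaled signals. Of 16 catenins and cadherin adaptors 14 were tested and 2 called, both in KO against WT, beside 1.64% of all features: Ctnnd2, a delta catenin of neural cells, fell by 4.05 (SE 0.78, adjusted p = 0.0298), and Ctnnbip1, which binds beta-catenin and blocks its partner TCF, rose by 0.82 (SE 0.15, adjusted p = 0.0256). Ctnnd2 was well above background on 4 WT, 2 Het and 3 KO arrays and passed the filter only through WT, where it is high, so the size of its difference rests partly on signals near background.

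The remaining pathway lists had 0 genes called by limma in the 3 comparisons, and 16.3%, 16.5% and 11.2% of all features had an unadjusted p under 0.05. Of 9 tested regulators of cadherin switching, transcription and splicing factors such as Snai2 and Zeb1 that repress or accompany Cdh1, 2, 4 and 1 had an unadjusted p under 0.05. Of 16 tested members of the wider cadherin superfamily it was 2, 4 and 3. Of the 3 tested genes with integrin or integrin-like names that the naming rule leaves out, Itgae, Itgal and Itgbl1, it was 1, 0 and 0.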

How the data were processed

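RNA of 12 MEF samples was labelled with Cy3 (500 ng each, per the labels) and hybridised to 1-colour Agilent arrays, and the authors extracted the spots with Agilent Feature Extraction, version 9.5 per the submitters' processing notes. The deposited values are processed signal intensity on a linear scale, background-subtracted by that software and not scaled between arrays. The deposited flags for spots well above background and for outliers were used as given, and the series table held the same intensity values. Array precision is limited by 4 samples per genotype.

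Outlier spots were left out, spots of a probe averaged as log2 intensity computed from the deposited signal, and each array's 75th percentile over its 41174 non-control probes subtracted. The probe with the highest mean stood for a gene, and features well above background on all arrays of at least 1 genotype were tested (16845 of 27672). Names of probes other than members were updated through a RefSeq table: 22944 of 41174 probes through accession, 6664 through symbol, 3108 through synonym, and 8458 kept the array's name. Coordinates and probe bases are those of the array files (build mm7). limma 3.58.1 in R 4.3.3 fitted 1 mean per genotype with empirical Bayes moderation, and Benjamini-Hochberg adjusted p values under 0.05 were called. The fit was tested on simulated data. Slides, read from the scanner barcodes, held Het 3, Het 4 and KO 3 (slide 1), WT 1 (slide 2), WT 2, WT 3, Het 2 and KO 2 (slide 3), and WT 5, Het 5, KO 4 and KO 5 (slide 4), so with slide as a block WT 1 adds nothing to a difference. On slide 4, 77.2% to 78.2% of spots were well above background, and on the others 60.0% to 65.1%.

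Every tested member is named, values on every array are given for members called in a comparison or not overlapping at a log2 difference of at least 1, and list genes are named where called, up to 4 per list and comparison. The members and lists were chosen with earlier results of these data known. Of 22 alternatives, 21 were listed at the outset, and averaging KO replicates 4 and 5 was chosen after seeing the data. Plots were made in Python 3.11.15 with matplotlib 3.10.9.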

Additional observations from a re-analysis of the deposited data

Results flagged for a closer look

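In 9 of 84 genotype groups of the tested members, the gap from 1 array to the nearest of the other 3, divided by the group's range, exceeded Dixon's critical value, and 8 of the 9 were arrays numbered 3. Chance flags about 1 in 20 groups, and the groups share arrays, so the flags are not independent. Cdh10 read −8.30 on WT replicate 3, against −5.41 to −5.00 on the other WT arrays, and −2.34 on KO replicate 3, against −5.36 to −5.08. Cdh11 read 2.07 on Het replicate 3, against 0.44 to 0.52, and −0.35 on KO replicate 3, against 2.69 to 3.24. Cdh13 read 2.07 on Het replicate 3, against 1.39 to 1.43. Cdh15 read −5.04 on KO replicate 3, against −2.72 to −2.28. Its level on Het replicate 2 was −4.28, against −5.01 to −4.92, and this was the array that carried another number. Itga4 read −4.81 on KO replicate 3, against −7.02 to −6.79. Itgb4 read −0.32 on that array, against −1.42 to −1.24. What sets the arrays numbered 3 apart was not tested.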

How the results depend on the processing

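Differences were recomputed at the probe that stands for each of Cdh1, Cdh2, Itga1, Itga4, Itga6, Itga8, Itga11, Itgb1 and Itgb8. They kept their direction in every fit under the 22 alternatives or within slides. In the fit of every probe, the other tested Itga4 probe stood at 0.86 in Het against WT, opposite to the −2.22 of the standing probe. Main counts of features called were 198 (Het against WT), 277 (KO against WT) and 168 (KO against Het), with 1, 1 and 3 members, and values below follow that order. With normexp background correction 42, 153 and 69 features were called, and of the members Itga1 (adjusted p = 0.0351) took the place of Itga8 (0.0631) in KO against Het. Without scaling it was 79, 145 and 161, with 1, 0 and 1 members. Without the background filter, where more features are tested, it was 41, 95 and 62, with 1, 0 and 0 members. With slide as a block it was 41, 57 and 79, with 0 members in each. With KO replicates 4 and 5 averaged, which leaves 11 samples, it was 38, 54 and 39, with 1, 0 and 0 members. Without the 3 arrays numbered 3 it was 2062, 2913 and 1512, with 11, 9 and 8 members. Testing every probe, 46 of them of members, called 3 members in KO against WT, Itga1, Itgb1 and Itgb8, beside 1.5% of 25601 probes. The Itga1 probes called there passed the background filter only through KO, where they read highest, so they are not support. The filter on all 12 arrays gives no value for Cdh1, Itga1 and Itga4.

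Leaving out 1 array at a time gave 15 to 1377, 50 to 1646 and 26 to 377 features, with 1 to 4, 0 to 3 and 0 to 5 members. The highest counts came without WT replicate 3 in both comparisons with WT and without Het replicate 3 in KO against Het, and the lowest without WT replicate 2, KO replicate 4 and Het replicate 4.

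Arrays with the same number deviated together at correlations of −0.037 to 0.427, not above 0.1 in every pair, so the numbers were not taken to pair them. Among the arrays numbered 3, WT with Het stood at 0.427, WT with KO at 0.22 and Het with KO at 0.361. WT replicate 5 stood at 0.191 with Het replicate 5 and 0.313 with KO replicate 5. The remaining pairs lay at −0.037 to 0.088. The main fit leaves this shared deviation out of account. With the replicate number as a block 83, 113 and 151 features and 1, 0 and 1 members were called, without Itga6 (adjusted p = 0.0592), Itga11 (0.064) and Itgb1 (0.13). The cause of these shifts was not tested. Dim members (Cdh1, Cdh10, Cdh17, Cdh24, Itga1 and Itga4) rest partly on signals near background.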
